A study of Homo sapiens with 12 samples.

Results

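The genes described here belong to the hypoxia response that hypoxia-inducible factors (HIFs) control, apart from the enzymes of glycolysis. They were chosen as 34 listed symbols, which were matched to Ensembl identifiers in the deposited tables, with ERO1A entered under its older name ERO1L. Of the 34 listed genes, 33 had reads in at least 1 table, out of 33704 genes with reads in the whole series, and the expression of PLOD2 is not analysed here. By role, 7 of the genes encode HIF subunits or their oxygen-dependent control, 8 act in mitochondria and energy stores, 9 act in transcription and signalling, 5 are secreted or surface proteins and 5 modify collagen or fold proteins.

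HIF is a transcription factor made of an oxygen-regulated alpha subunit (HIF1A or EPAS1) and a constant partner, ARNT. With oxygen present, the prolyl hydroxylases EGLN1, EGLN2 and EGLN3 modify the alpha subunit, VHL binds the modified form, and the protein is ubiquitinated and destroyed. When oxygen is scarce the alpha subunit is stable and binds short DNA elements near its target genes, so that HIF activity is set largely by protein stability, which mRNA levels do not measure. In T cells this pathway is known for its ties to activation and metabolism.

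The RNA came from Jurkat cells, an established human line of T-cell acute lymphoblastic leukaemia, in 12 libraries that form 6 groups of 2. TAL1-KD cells carried a doxycycline-inducible shRNA against the transcription factor TAL1 and received doxycycline at 5 µg/ml for 72 h, and TAL1-control cells were the same cells without doxycycline. UTX-KD and UTX-control cells differed in the same way but carried an shRNA against UTX, the histone demethylase encoded by KDM6A. J4-2uM cells received GSK-J4, an inhibitor of KDM6 demethylases, at 2 µM for 72 h, and J4-control cells received the vehicle DMSO for 72 h. All cells carrying an shRNA were grown in Tet-free serum with blasticidin and G418, and the cells of the GSK-J4 comparison were grown in ordinary serum without these agents. The TAL1 and UTX controls received no doxycycline, so an effect of the drug itself cannot be told apart from that of the shRNA. The labels do not say whether either shRNA line was a single clone or a pool. Nor do they tell if the 2 libraries of a group came from separate cultures, so the p-values rest on a spread between libraries that may be technical.

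Between 55524079 and 82534711 reads were counted per library. The targeted mRNAs were checked first. TAL1 stood at 232 and 254 CPM in the libraries labelled TAL1-KD and at 254 and 257 CPM in TAL1-control (log2 fold change -0.07, 95% interval -0.24 to 0.10, edgeR adjusted p = 0.496). KDM6A stood at 29.3 and 29.4 CPM in the libraries labelled UTX-KD and at 30.9 and 31.3 CPM in UTX-control (log2 fold change -0.08, 95% interval -0.17 to 0.00, edgeR adjusted p = 0.109). Neither target was called lower in its own knockdown, and so all directions given here are those of the labelled groups. CPM are counts per 1000000 reads after TMM scaling within a comparison, so levels of different comparisons come from tables scaled separately unless stated. Of 10 T-cell markers, 9 had a row in the tables, and their summed level was 2258.4 to 4406.2 CPM over the 12 libraries. They were 3916.0 and 4406.2 CPM in TAL1-KD, against 3232.1 and 3347.8 CPM in TAL1-control, and 3449.3 and 3418.4 CPM in UTX-KD, against 3017.4 and 3046.5 CPM in UTX-control. With GSK-J4 they were 2300.4 and 2258.4 CPM in J4-2uM, against 2500.8 and 2521.8 CPM in J4-control. Summed over 12 markers of other cell types, of which 2 to 3 reached 1 CPM and HBB and PECAM1 are not analysed here, levels were 104 and 96.6 CPM in J4-2uM against 46.8 and 47.0 CPM in J4-control, most of it CD79A. They were 62.6 and 60.9 CPM in UTX-KD against 44.1 and 45.5 CPM in UTX-control, and 66.5 and 69.7 CPM in TAL1-KD against 75.7 and 76.3 CPM in TAL1-control. The part of these markers in the results was not tested. In bulk RNA, fewer cells of a kind and less RNA per cell cannot be told apart.

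In the UTX-labelled and GSK-J4 comparisons most of the hypoxia genes were lower in the treated cells, and in the TAL1-labelled comparison they went both ways. The genes were chosen with earlier results of these data known. Their shares beside those of all genes are therefore descriptions and not a test. In the UTX-labelled comparison 25 of the 31 genes tested changed at an edgeR adjusted p under 0.05 (80.6%), against 50.8% of all 16847 genes tested. In detail, 21 of them were lower (67.7%, against 25.5% of all genes) and 4 were higher (12.9%, against 25.4%). With GSK-J4, 30 of 32 genes changed (93.8%, against 75.2% of all 17907 genes). Of these, 25 were lower (78.1%, against 37.1% of all genes) and 5 were higher (15.6%, against 38.1%). Among the 31 tested in the TAL1-labelled comparison, 16 changed (51.6%, against 53.9% of all 16829 genes), a share near that of all genes, with 9 higher (29.0%, against 26.2%) and 7 lower (22.6%, against 27.7%). The median log2 fold change of the hypoxia genes was -0.47 for UTX-KD, -0.76 for GSK-J4 and 0.04 for TAL1-KD, beside 0.01, 0.01 and -0.02 over all genes. Called changes of at least 1 on the log2 scale numbered 8 lower of 31 hypoxia genes for UTX-KD and 13 lower of 32 for GSK-J4. For TAL1-KD they numbered 2 lower and 1 higher of 31. Over all genes such changes numbered 172 lower and 298 higher of 16847 for UTX-KD. They numbered 1619 lower and 1766 higher of 17907 for GSK-J4, and 1753 lower and 698 higher of 16829 for TAL1-KD. P4HA2, which peaked at 0.140 CPM, was tested in no comparison, and CA9 was tested with GSK-J4 only.

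The counts in the TAL1-labelled comparison depended on single libraries and on scaling. Each fit without a library was filtered afresh. Its counts can therefore include a listed gene, such as CA9, that the reported comparison did not test. Called hypoxia genes numbered 12 without TAL1-control replicate 1 (5 higher, 7 lower), 10 without TAL1-control replicate 2 (6 higher, 4 lower), 22 without TAL1-KD replicate 1 (11 higher, 11 lower) and 19 without TAL1-KD replicate 2 (9 higher, 10 lower). Scaling by library totals only lowered the median of all genes by 0.14 on the log2 scale and gave 6 higher and 11 lower hypoxia genes, whose median was then -0.11, with 35.5% of all called genes higher in place of 48.6%. With GC and length trends taken out of every library the counts were 13 higher and 6 lower, with 58.9% of all called genes higher. Under library totals the share of all called genes that were higher was also 70.0% in place of 49.9% for UTX-KD and 63.6% in place of 50.7% for GSK-J4, where the medians of all genes shifted by 0.09 and 0.17. The hypoxia genes were then 5 higher and 21 lower for UTX-KD, and 5 higher and 22 lower for GSK-J4.

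**Figure D1:**
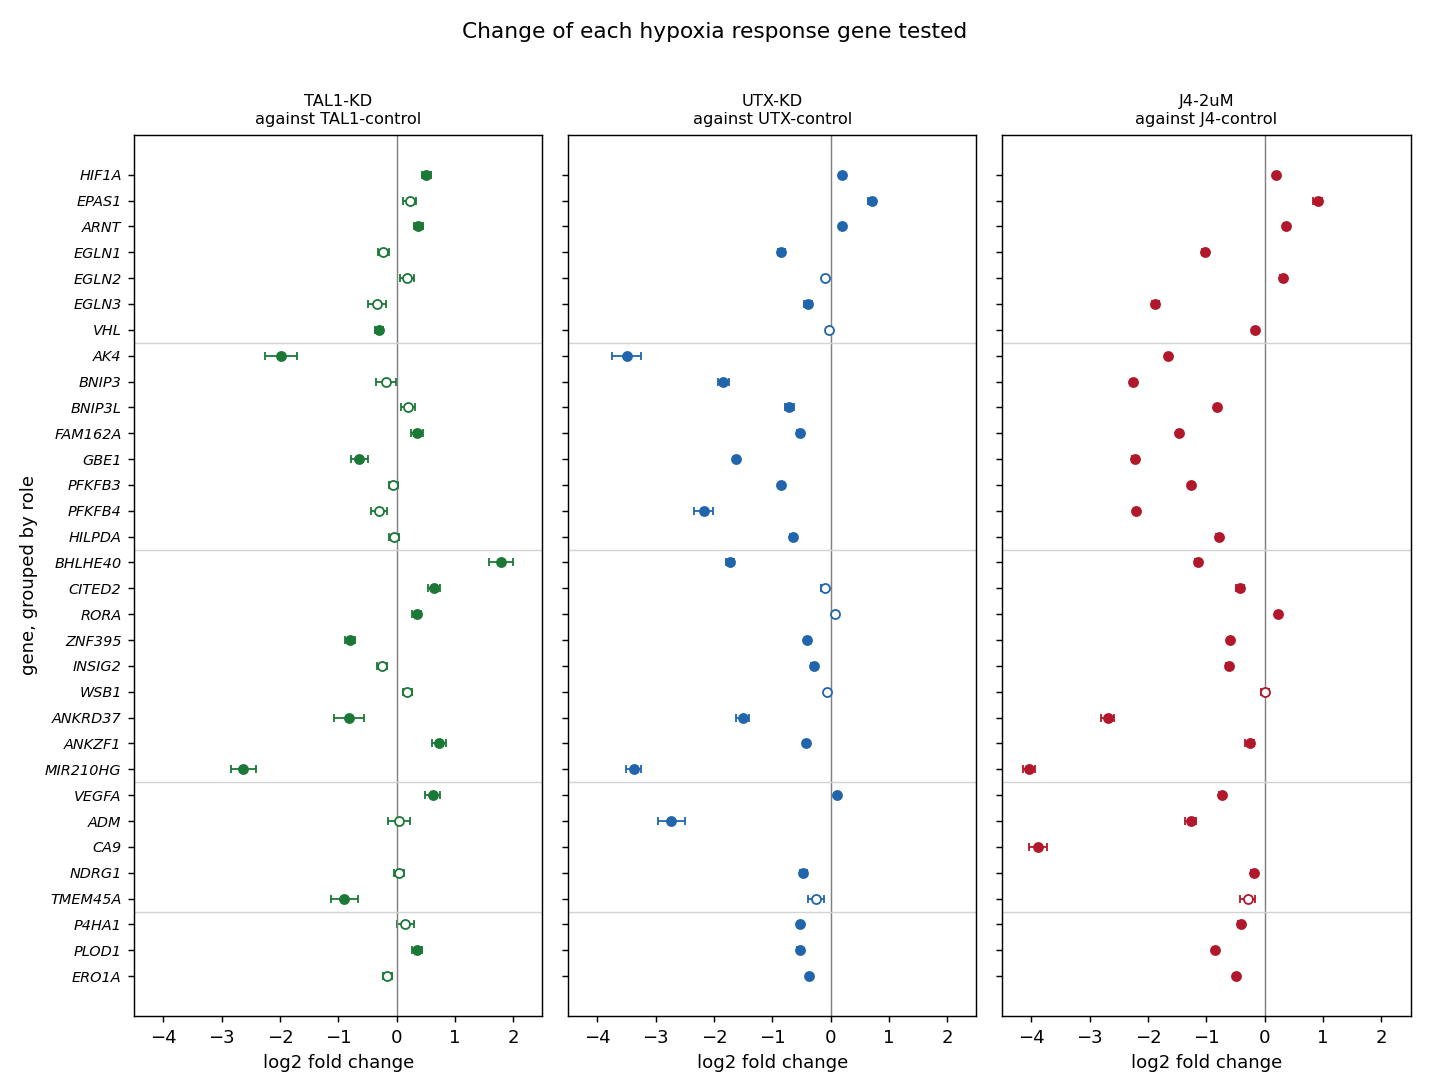
Log2 fold changes of the hypoxia genes by role in the TAL1-labelled, UTX-labelled and GSK-J4 comparisons, with bars for the standard error and filled points for genes called by edgeR at an adjusted p under 0.05. For UTX-KD 21 of 31 genes were called lower and for GSK-J4 25 of 32, while TAL1-KD gave 9 higher and 7 lower of 31.

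The DNA element that HIF binds has a core of ACGTG or GCGTG. The core was searched on both strands, with overlapping matches merged into 1 site, in windows of 300 bases (250 before to 50 after the start) taken from RefSeq on GRCh38.p14. A window was found for 27 of the 34 listed genes, and none for NDRG1, VEGFA, HILPDA, ANKZF1, VHL, BNIP3L and ZNF395. The 27 include PLOD2, with 3 sites, whose expression is not analysed here. At least 1 core was present for 22 of the 27 (81.5%), against 52.4% of 27305 genes with a window, and at least 2 for 13 (48.1%), against 23.2%. In the 150 bases before the start, 20 of 27 held a core (74.1%, against 36.6%). BNIP3 had 5 sites and FAM162A 4, while ARNT, EGLN3, RORA, TMEM45A and P4HA2 had none in this window. A match describes these letters and is not a measured binding site. Most of the listed genes were chosen as HIF targets, so a larger share with the core says nothing about the changes measured here. The windows of all genes were not matched to theirs for base composition or expression.

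Windows are shown for the 4 genes with at least 2 cores whose calls in 2 or more comparisons had the same direction and whose mean absolute log2 fold change was largest. Capitals mark the cores. MIR210HG lies at chr11:568408-568707 on the minus strand, with sites starting 170 and 9 bases before its start. AK4 lies at chr1:65147953-65148252 on the plus strand, with sites at 177, 68 and 11 bases before its start, in the 1 of its 4 windows that holds the most. ANKRD37 lies at chr4:185396591-185396890 on the plus strand, with sites at 162 and 143 bases before its start, the first a palindrome read on both strands. BHLHE40 lies at chr3:4979187-4979486 on the plus strand, with sites at 245, 174 and 149 bases before its start. MIR210HG, AK4 and ANKRD37 fell in all 3 comparisons, and BHLHE40 rose in TAL1-KD and fell in the other comparisons:
MIR210HG: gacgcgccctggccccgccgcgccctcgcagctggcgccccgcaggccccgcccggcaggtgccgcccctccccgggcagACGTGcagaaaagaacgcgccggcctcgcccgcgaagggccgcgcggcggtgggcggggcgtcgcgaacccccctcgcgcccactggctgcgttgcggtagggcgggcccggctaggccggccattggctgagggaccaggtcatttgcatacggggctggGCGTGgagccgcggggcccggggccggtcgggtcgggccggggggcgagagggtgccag
AK4: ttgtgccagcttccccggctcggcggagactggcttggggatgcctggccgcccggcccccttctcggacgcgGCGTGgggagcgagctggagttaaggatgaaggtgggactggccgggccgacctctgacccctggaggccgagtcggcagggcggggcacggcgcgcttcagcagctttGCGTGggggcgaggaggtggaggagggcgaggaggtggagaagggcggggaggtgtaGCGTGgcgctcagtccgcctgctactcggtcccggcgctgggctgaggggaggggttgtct
ANKRD37: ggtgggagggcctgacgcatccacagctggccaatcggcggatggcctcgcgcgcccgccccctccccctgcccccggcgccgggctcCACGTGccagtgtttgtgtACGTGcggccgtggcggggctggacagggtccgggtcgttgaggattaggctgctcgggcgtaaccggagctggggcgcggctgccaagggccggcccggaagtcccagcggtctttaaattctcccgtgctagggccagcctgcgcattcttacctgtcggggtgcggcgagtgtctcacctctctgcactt
BHLHE40: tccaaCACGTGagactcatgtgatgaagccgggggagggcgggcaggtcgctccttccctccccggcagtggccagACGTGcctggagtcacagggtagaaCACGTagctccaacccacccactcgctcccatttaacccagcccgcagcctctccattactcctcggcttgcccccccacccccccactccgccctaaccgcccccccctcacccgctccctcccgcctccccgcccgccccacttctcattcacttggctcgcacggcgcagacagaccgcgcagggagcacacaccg

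The alpha subunits did not follow the targets downwards. HIF1A (ENSG00000100644), the alpha subunit found in most cell types, had 196 and 210 CPM in TAL1-KD, against 140 and 144 CPM in TAL1-control (log2 fold change 0.51 ± 0.08 SE, edgeR adjusted p = 0.00193). UTX-KD cells held HIF1A at 165 and 168 CPM, against 145 and 144 CPM in UTX-control (0.20 ± 0.03 SE, edgeR adjusted p = 8.73e-06). With GSK-J4, HIF1A stood at 146 and 141 CPM in J4-2uM, against 122 and 128 CPM in J4-control (0.20 ± 0.04 SE, edgeR adjusted p = 3.60e-05). Both treated libraries lay above both controls in each comparison, so HIF1A mRNA rose in all 3. HIF1A shares exonic sequence with the antisense gene HIF1A-AS1 and has 1 annotated pseudogene, and the strand setting of the counting is not given in the sources used here.

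EPAS1, the alpha subunit best known from endothelium and kidney, was the scarcer of the pair. In J4-control its level was 0.962 RPKM against 29.3 RPKM for HIF1A, where RPKM divide by annotated transcript length. UTX-KD libraries gave EPAS1 at 12.3 and 11.8 CPM, against 7.47 and 7.43 CPM in UTX-control (log2 fold change 0.70 ± 0.06 SE, edgeR adjusted p = 1.64e-08). Under GSK-J4, EPAS1 was at 9.72 and 9.09 CPM in J4-2uM and at 4.62 and 5.32 CPM in J4-control (0.91 ± 0.08 SE, edgeR adjusted p = 6.52e-09). EPAS1 rose in both, with no overlap of the libraries. TAL1-KD cells had EPAS1 at 15.1 and 17.0 CPM, against 13.7 and 13.8 CPM in TAL1-control (0.22 ± 0.11 SE, edgeR adjusted p = 0.119). It was called higher there without TAL1-KD replicate 1 (0.32, edgeR adjusted p = 0.000546) and with the GC and length trend removed (0.33, edgeR adjusted p = 0.0250).

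ARNT, the shared partner subunit, had 110 and 118 CPM in TAL1-KD, against 88.2 and 88.5 CPM in TAL1-control (log2 fold change 0.37 ± 0.08 SE, edgeR adjusted p = 0.00634). UTX-KD held ARNT at 98.5 and 96.8 CPM, against 83.4 and 86.2 CPM in UTX-control (0.20 ± 0.03 SE, edgeR adjusted p = 2.01e-05). For GSK-J4, ARNT was at 118 and 117 CPM in J4-2uM, against 92.0 and 90.6 CPM in J4-control (0.36 ± 0.03 SE, edgeR adjusted p = 7.03e-09). ARNT and HIF1A were the only hypoxia genes called higher in all 3 comparisons. The ARNT call for TAL1-KD was lost without TAL1-control replicate 1 or replicate 2 (0.37 in each, edgeR adjusted p = 0.107 and 0.101).

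Of the 3 prolyl hydroxylases, EGLN1 and EGLN3, which are themselves known HIF targets, fell for UTX-KD and GSK-J4. EGLN1, the main enzyme acting on HIF1A in most cells, had 41.5 and 45.4 CPM in UTX-KD, against 73.7 and 83.2 CPM in UTX-control (log2 fold change -0.85 ± 0.06 SE, edgeR adjusted p = 6.71e-07). In J4-2uM, EGLN1 had 54.3 and 54.8 CPM, against 117 and 106 CPM in J4-control (-1.03 ± 0.04 SE, edgeR adjusted p = 5.82e-14). TAL1-KD gave EGLN1 at 41.7 and 38.9 CPM, against 44.6 and 49.9 CPM in TAL1-control (-0.23 ± 0.09 SE, edgeR adjusted p = 0.0673). EGLN1 was called lower in TAL1-KD without TAL1-KD replicate 1 (-0.27, edgeR adjusted p = 0.000470) or replicate 2 (-0.18, edgeR adjusted p = 0.0182), with library totals only (-0.37, edgeR adjusted p = 0.0277) and with a stricter filter on low counts (-0.26, edgeR adjusted p = 0.0443). The treated libraries of all 3 comparisons sat between 38.9 and 54.8 CPM, while the controls ran from 44.6 to 117 CPM.

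EGLN3, an inducible hydroxylase, had 13.2 and 12.3 CPM in J4-2uM, against 49.5 and 45.0 CPM in J4-control (log2 fold change -1.88 ± 0.06 SE, edgeR adjusted p = 4.28e-16). In UTX-KD, EGLN3 had 6.01 and 6.08 CPM, against 7.83 and 8.09 CPM in UTX-control (-0.39 ± 0.07 SE, edgeR adjusted p = 0.000106). TAL1-KD held EGLN3 at 7.55 and 6.16 CPM, against 7.94 and 9.37 CPM in TAL1-control (-0.34 ± 0.15 SE, edgeR adjusted p = 0.0988). J4-control stood well above all other groups in EGLN3. EGLN2, the hydroxylase that hypoxia does not induce, went the other way with GSK-J4, at 40.9 and 43.4 CPM in J4-2uM against 33.8 and 34.3 CPM in J4-control (0.31 ± 0.04 SE, edgeR adjusted p = 2.50e-06). EGLN2 was not called for UTX-KD (-0.09 ± 0.04 SE, edgeR adjusted p = 0.0899) or TAL1-KD (0.18 ± 0.12 SE, edgeR adjusted p = 0.212). Without TAL1-KD replicate 1 the TAL1-labelled comparison called EGLN2 higher (0.35, edgeR adjusted p = 3.31e-06) and EGLN3 lower (-0.47, edgeR adjusted p = 0.000439), and with the GC and length trend removed EGLN2 was called lower for UTX-KD (-0.15, edgeR adjusted p = 0.00121).

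VHL, the substrate receptor that marks hydroxylated HIF for destruction, had 113 and 118 CPM in J4-2uM, against 130 and 130 CPM in J4-control (log2 fold change -0.17 ± 0.03 SE, edgeR adjusted p = 0.000152). TAL1-KD held VHL at 119 and 115 CPM, against 145 and 143 CPM in TAL1-control (-0.30 ± 0.07 SE, edgeR adjusted p = 0.0121). VHL was therefore a little lower in both, and for UTX-KD it was not called (-0.03, edgeR adjusted p = 0.413). The TAL1-KD call was lost without TAL1-control replicate 1 (-0.29, edgeR adjusted p = 0.206), without TAL1-control replicate 2 (-0.31, edgeR adjusted p = 0.174) and with the GC and length trend removed (-0.14, edgeR adjusted p = 0.177), and the GSK-J4 call was lost with library totals only (0.00, edgeR adjusted p = 0.915).

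**Figure D2:**
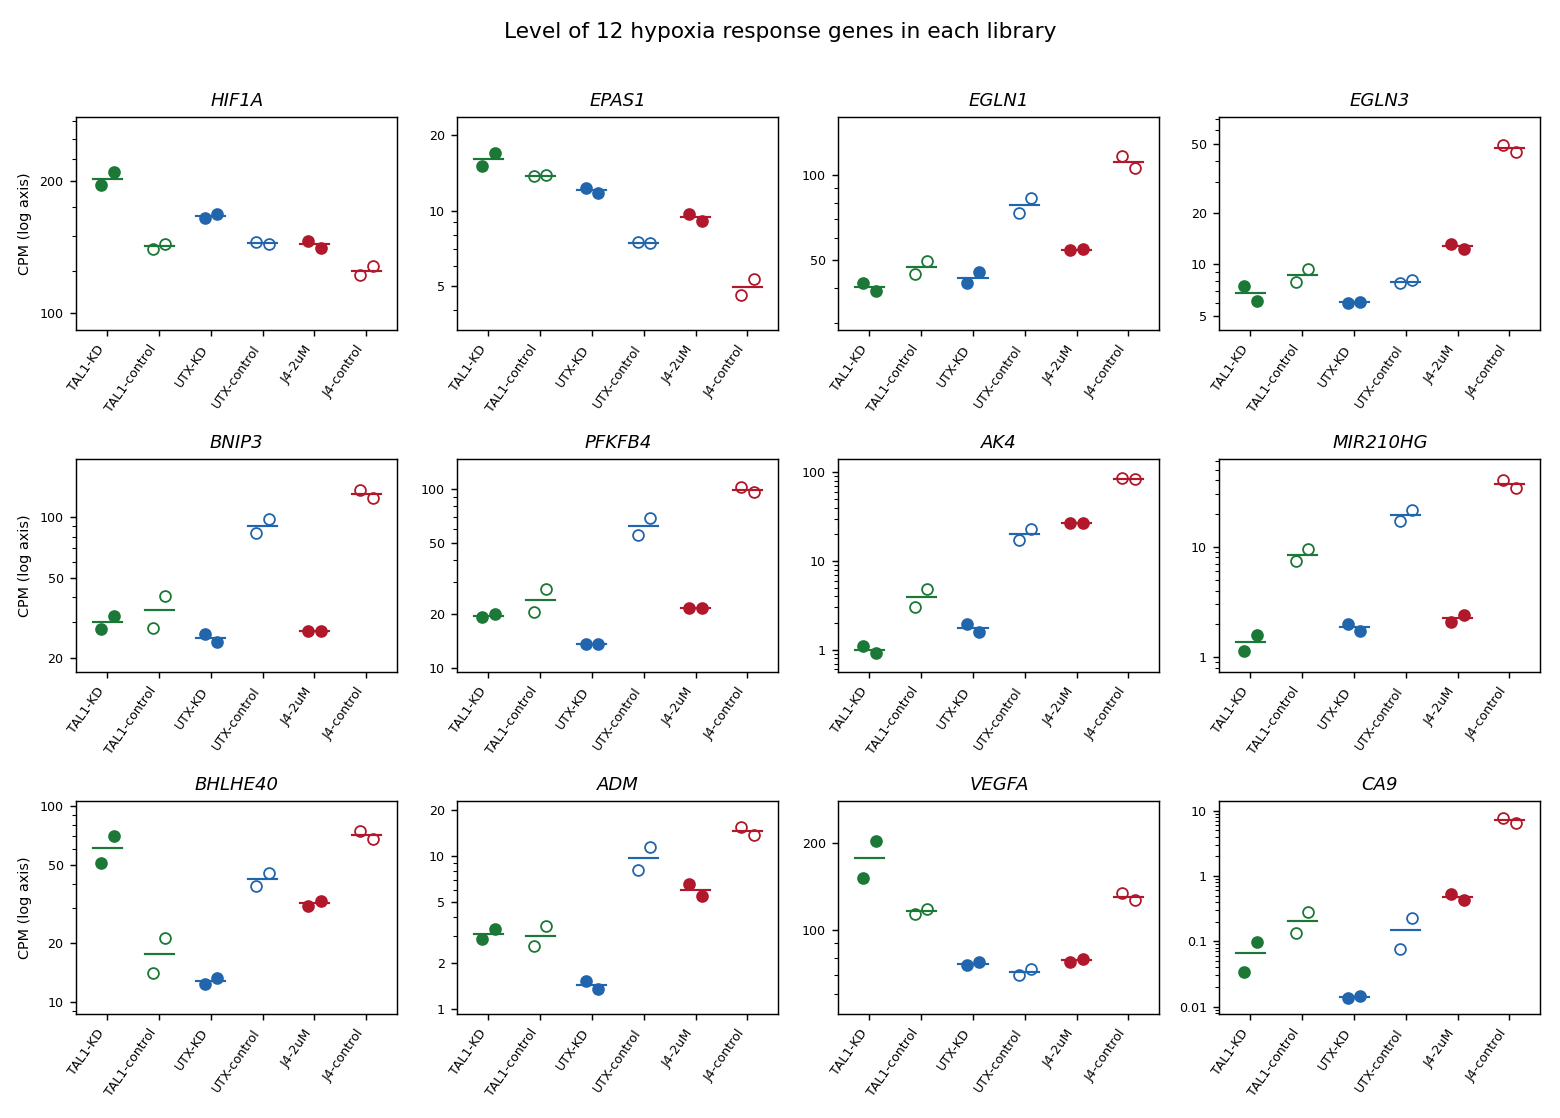
Level of 12 hypoxia genes in each of the 12 libraries, in CPM on a log axis, with filled points for treated libraries, open points for controls and a line at each group mean. HIF1A and EPAS1 were higher in UTX-KD and J4-2uM than in their controls, while EGLN1, BNIP3, PFKFB4, AK4, MIR210HG, BHLHE40 and ADM were lower.

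All 8 mitochondrial and energy genes fell in both the UTX-labelled and the GSK-J4 comparison, with median log2 fold changes of -1.23 and -1.56. For TAL1-KD the same role had 1 higher and 2 lower gene calls and a median of -0.13. BNIP3, a receptor on the outer mitochondrial membrane that directs mitochondria to autophagy, had 26.4 and 24.1 CPM in UTX-KD, against 83.4 and 98.0 CPM in UTX-control (log2 fold change -1.84 ± 0.10 SE, edgeR adjusted p = 0.000177). J4-2uM cells had BNIP3 at 27.2 and 27.2 CPM, against 137 and 125 CPM in J4-control (-2.26 ± 0.04 SE, edgeR adjusted p = 1.71e-18). TAL1-KD gave BNIP3 at 27.9 and 32.4 CPM, against 28.3 and 40.7 CPM in TAL1-control (-0.19 ± 0.17 SE, edgeR adjusted p = 0.366). All treated groups, and 1 of the TAL1-control libraries, were near 30 CPM, while UTX-control and J4-control were around 3 times as high or more. The UTX-KD call was lost without UTX-KD replicate 1 (-1.91, edgeR adjusted p = 0.0930) or replicate 2 (-1.77, edgeR adjusted p = 0.0951), and BNIP3 has 39 annotated pseudogenes, so its counts are uncertain.

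BNIP3L, the paralogous mitophagy receptor also called NIX, had 105 and 112 CPM in J4-2uM, against 199 and 184 CPM in J4-control (log2 fold change -0.82 ± 0.04 SE, edgeR adjusted p = 8.94e-12). In UTX-KD, BNIP3L had 101 and 110 CPM, against 162 and 184 CPM in UTX-control (-0.71 ± 0.08 SE, edgeR adjusted p = 0.00233), a call lost without UTX-KD replicate 1 (-0.65, edgeR adjusted p = 0.175) or replicate 2 (-0.77, edgeR adjusted p = 0.151). BNIP3L was not called for TAL1-KD (0.19, edgeR adjusted p = 0.228), but with the GC and length trend removed it was higher (0.51, edgeR adjusted p = 0.00984). Its decrease was thus smaller in log2 terms than that of BNIP3 in both comparisons.

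AK4, an adenylate kinase of the mitochondrial matrix whose promoter window holds 3 cores, fell in all 3 comparisons from very different control levels. UTX-KD had AK4 at 1.95 and 1.58 CPM, against 17.3 and 23.1 CPM in UTX-control (log2 fold change -3.50 ± 0.25 SE, edgeR adjusted p = 0.00114). In J4-2uM, AK4 had 26.7 and 26.6 CPM, against 86.0 and 82.8 CPM in J4-control (-1.66 ± 0.04 SE, edgeR adjusted p = 5.62e-18). TAL1-KD held AK4 at 1.09 and 0.914 CPM, against 3.06 and 4.87 CPM in TAL1-control (-1.98 ± 0.27 SE, edgeR adjusted p = 0.00118). J4-2uM cells kept more AK4 mRNA than the controls of either other comparison. Without UTX-KD replicate 1 or replicate 2 the UTX-KD call was lost (-3.66 and -3.36, edgeR adjusted p = 0.120 in each), and 6 pseudogenes of AK4 are annotated.

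PFKFB4, one of the bifunctional enzymes that set the level of an activator of phosphofructokinase, had 13.6 and 13.6 CPM in UTX-KD, against 54.9 and 69.2 CPM in UTX-control (log2 fold change -2.18 ± 0.17 SE, edgeR adjusted p = 0.00396). GSK-J4 gave PFKFB4 at 21.7 and 21.5 CPM in J4-2uM, against 102 and 95.8 CPM in J4-control (-2.20 ± 0.04 SE, edgeR adjusted p = 2.94e-19). No treated library reached its controls in either comparison, and in TAL1-KD PFKFB4 was at 19.2 and 19.9 CPM, against 20.6 and 27.5 CPM in TAL1-control (-0.30 ± 0.14 SE, edgeR adjusted p = 0.111). It was called lower in TAL1-KD without TAL1-control replicate 1 (-0.49, edgeR adjusted p = 0.0425) and with library totals only (-0.44, edgeR adjusted p = 0.0417). Without UTX-KD replicate 1 or replicate 2 the UTX-KD call was lost (-2.18 and -2.17, edgeR adjusted p = 0.131 and 0.121). PFKFB3, its paralogue with the stronger kinase activity, fell less, by 0.85 ± 0.04 SE for UTX-KD (edgeR adjusted p = 2.01e-12) and by 1.26 ± 0.04 SE for GSK-J4 (edgeR adjusted p = 1.72e-16), and was not called for TAL1-KD (-0.06, edgeR adjusted p = 0.568).

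GBE1, the glycogen branching enzyme, had 23.5 and 23.4 CPM in UTX-KD, against 69.0 and 75.4 CPM in UTX-control (log2 fold change -1.62 ± 0.04 SE, edgeR adjusted p = 3.81e-16). With GSK-J4, GBE1 was at 16.8 and 15.8 CPM in J4-2uM, against 79.0 and 73.7 CPM in J4-control (-2.23 ± 0.05 SE, edgeR adjusted p = 1.07e-18). TAL1-KD had GBE1 at 12.8 and 13.0 CPM, against 17.6 and 22.7 CPM in TAL1-control (-0.64 ± 0.14 SE, edgeR adjusted p = 0.00678). GBE1 fell in all 3, although the TAL1-KD call was lost without TAL1-control replicate 2 (-0.45, edgeR adjusted p = 0.0918). HILPDA, which inhibits lipolysis on lipid droplets, fell by 0.64 ± 0.05 SE for UTX-KD (edgeR adjusted p = 9.93e-10) and by 0.79 ± 0.05 SE for GSK-J4 (edgeR adjusted p = 5.47e-12), and in TAL1-KD it had 21.1 and 19.7 CPM, against 21.2 and 21.2 CPM in TAL1-control (-0.05, edgeR adjusted p = 0.646).

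FAM162A, a mitochondrial protein tied to cell death in hypoxia, changed in opposite directions. J4-2uM had FAM162A at 43.8 and 41.0 CPM, against 120 and 115 CPM in J4-control (log2 fold change -1.47 ± 0.04 SE, edgeR adjusted p = 3.87e-17). UTX-KD had it at 70.1 and 68.1 CPM, against 96.2 and 103 CPM in UTX-control (-0.53 ± 0.04 SE, edgeR adjusted p = 2.37e-10). TAL1-KD libraries held FAM162A at 76.8 and 86.1 CPM, against 59.2 and 69.0 CPM in TAL1-control (0.35 ± 0.10 SE, edgeR adjusted p = 0.0247). FAM162A thus rose in TAL1-KD and fell in the other comparisons, but the TAL1-KD call was lost without TAL1-control replicate 1 (0.24, edgeR adjusted p = 0.306) and with library totals only (0.20, edgeR adjusted p = 0.103).

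MIR210HG (ENSG00000247095) gave the largest decrease of any hypoxia gene in the TAL1-labelled and GSK-J4 comparisons and the next to AK4 in the UTX-labelled one. Its promoter window holds 2 cores. It is the host transcript of miR-210, the microRNA most regularly induced by hypoxia. J4-2uM had MIR210HG at 2.08 and 2.40 CPM, against 40.2 and 33.9 CPM in J4-control (log2 fold change -4.04 ± 0.10 SE, edgeR adjusted p = 1.29e-12). UTX-KD had it at 1.99 and 1.71 CPM, against 17.3 and 21.5 CPM in UTX-control (-3.38 ± 0.13 SE, edgeR adjusted p = 6.16e-09). In TAL1-KD, MIR210HG stood at 1.13 and 1.58 CPM, against 7.41 and 9.47 CPM in TAL1-control (-2.63 ± 0.21 SE, edgeR adjusted p = 0.000292). The host RNA left in treated cells was 6.05% of the control mean for J4-2uM, 9.51% for UTX-KD and 16.1% for TAL1-KD. The mature microRNAs themselves were not measured by these mRNA libraries. They are shown because their host is among the most changed genes of the set, as listed by RefSeq on GRCh38.p14 at chr11:568112-568133 and chr11:568150-568171, minus strand, with the seed (bases 2 to 8) in capitals:
hsa-miR-210-3p: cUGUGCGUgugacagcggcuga
hsa-miR-210-5p: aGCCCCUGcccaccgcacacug

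BHLHE40, a transcriptional repressor also called DEC1, moved in opposite directions. TAL1-KD had BHLHE40 at 51.4 and 70.1 CPM, against 14.0 and 21.2 CPM in TAL1-control (log2 fold change 1.79 ± 0.21 SE, edgeR adjusted p = 0.000810). UTX-KD held BHLHE40 at 12.3 and 13.3 CPM, against 39.2 and 45.6 CPM in UTX-control (-1.72 ± 0.07 SE, edgeR adjusted p = 4.51e-10). With GSK-J4, BHLHE40 was at 31.0 and 32.8 CPM in J4-2uM, against 74.4 and 67.5 CPM in J4-control (-1.15 ± 0.05 SE, edgeR adjusted p = 3.71e-13). The libraries did not overlap in any of the 3, but the TAL1-KD call was lost without TAL1-KD replicate 1 (2.01, edgeR adjusted p = 0.118) or replicate 2 (1.55, edgeR adjusted p = 0.178). An antisense gene, BHLHE40-AS1, overlaps its exons.

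ANKRD37, a small ankyrin repeat protein, was a low-level gene that fell in all 3 comparisons. J4-2uM had ANKRD37 at 1.02 and 1.08 CPM, against 6.87 and 6.71 CPM in J4-control (log2 fold change -2.69 ± 0.11 SE, edgeR adjusted p = 2.91e-14). UTX-KD had it at 1.78 and 2.26 CPM, against 5.75 and 5.78 CPM in UTX-control (-1.51 ± 0.11 SE, edgeR adjusted p = 3.36e-10). TAL1-KD held ANKRD37 at 1.08 and 0.882 CPM, against 1.38 and 2.08 CPM in TAL1-control (-0.82 ± 0.26 SE, edgeR adjusted p = 0.0316). That last call was lost without TAL1-control replicate 2 (-0.49, edgeR adjusted p = 0.309) and with the DESeq2 Wald test (-0.80, adjusted p = 0.0554). ZNF395, a zinc finger transcription factor, fell in all 3 as well, by 0.80 ± 0.08 SE for TAL1-KD (edgeR adjusted p = 0.000534), 0.40 ± 0.04 SE for UTX-KD (edgeR adjusted p = 1.38e-08) and 0.59 ± 0.04 SE for GSK-J4 (edgeR adjusted p = 1.64e-11).

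The other transcription and signalling genes changed less. CITED2, which competes with HIF alpha subunits for the coactivators EP300 and CREBBP, had 13.1 and 12.8 CPM in TAL1-KD, against 8.04 and 8.54 CPM in TAL1-control (log2 fold change 0.64 ± 0.11 SE, edgeR adjusted p = 0.00260). J4-2uM held CITED2 at 8.29 and 8.35 CPM, against 11.7 and 10.6 CPM in J4-control (-0.42 ± 0.07 SE, edgeR adjusted p = 3.02e-05), and it was not called for UTX-KD (-0.10, edgeR adjusted p = 0.210). CITED2 therefore rose with TAL1-KD and fell with GSK-J4. ANKZF1, a hydrolase that frees stalled peptides on ribosomes, rose in TAL1-KD (0.72 ± 0.12 SE, edgeR adjusted p = 0.00232) and fell in UTX-KD (-0.42 ± 0.04 SE, edgeR adjusted p = 7.99e-09) and J4-2uM (-0.26 ± 0.07 SE, edgeR adjusted p = 0.00743), though with library totals only it was -0.09 with GSK-J4 (edgeR adjusted p = 0.276). Its exons overlap those of the opposite-strand gene GLB1L.

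INSIG2, which holds the sterol sensor complex in the endoplasmic reticulum, fell by 0.28 ± 0.05 SE for UTX-KD (edgeR adjusted p = 3.77e-05) and by 0.61 ± 0.05 SE for GSK-J4 (edgeR adjusted p = 2.11e-10), and was -0.25 for TAL1-KD (edgeR adjusted p = 0.0555). INSIG2 was called lower for TAL1-KD without TAL1-KD replicate 1 (-0.27, edgeR adjusted p = 0.000648) or replicate 2 (-0.20, edgeR adjusted p = 0.0118), with library totals only (-0.39, edgeR adjusted p = 0.0269) and with a stricter filter (-0.28, edgeR adjusted p = 0.0354). RORA, a nuclear receptor, was the sole target gene called higher with GSK-J4 (0.23 ± 0.04 SE, edgeR adjusted p = 6.55e-05). It was also called higher for TAL1-KD (0.34 ± 0.08 SE, edgeR adjusted p = 0.00725), a call lost without TAL1-control replicate 1 (0.33, edgeR adjusted p = 0.153), without replicate 2 (0.36, edgeR adjusted p = 0.104) and with library totals only (0.20, edgeR adjusted p = 0.0816). RORA was not called for UTX-KD (0.07, edgeR adjusted p = 0.245), except without UTX-KD replicate 1 (0.14, edgeR adjusted p = 0.0124) and with library totals only (0.17, edgeR adjusted p = 0.0119). WSB1, a substrate receptor of a ubiquitin ligase, was called in none of the 3 reported comparisons (0.18 in TAL1-KD, -0.07 in UTX-KD and 0.00 with GSK-J4, edgeR adjusted p = 0.0757, 0.0782 and 0.967). With the GC and length trend removed WSB1 was called higher for TAL1-KD (0.45, edgeR adjusted p = 0.00438) and lower for UTX-KD (-0.09, edgeR adjusted p = 0.00182). It was also called for TAL1-KD without TAL1-KD replicate 1 (0.21, edgeR adjusted p = 0.000477) or replicate 2 (0.17, edgeR adjusted p = 0.00540), for UTX-KD without UTX-KD replicate 2 (-0.11, edgeR adjusted p = 0.00202), and for GSK-J4 without J4-2uM replicate 1 (0.09, edgeR adjusted p = 0.0345) or replicate 2 (-0.10, edgeR adjusted p = 0.0165).

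CA9, a surface carbonic anhydrase used as a marker of hypoxia, was near absent from the shRNA lines. J4-2uM had 40 and 31 CA9 reads (0.521 and 0.435 CPM), against 409 and 466 reads (7.80 and 6.56 CPM) in J4-control. With GSK-J4 its log2 fold change was -3.89 ± 0.15 SE (edgeR adjusted p = 5.76e-15). Both J4-2uM libraries were far below both J4-control libraries. In the other tables CA9 had 2 and 6 reads in TAL1-KD against 10 and 19 in TAL1-control. It had 1 and 1 in UTX-KD against 6 and 13 in UTX-control. These were too few for the filter, so CA9 was not tested in either comparison. The fits of differences between comparisons did include it.

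ADM, the precursor of the vasodilator peptide adrenomedullin, had 1.52 and 1.36 CPM in UTX-KD, against 8.07 and 11.4 CPM in UTX-control (log2 fold change -2.73 ± 0.24 SE, edgeR adjusted p = 0.000389). J4-2uM had ADM at 6.55 and 5.46 CPM, against 15.6 and 13.7 CPM in J4-control (-1.27 ± 0.09 SE, edgeR adjusted p = 6.76e-10). ADM fell in both, and in TAL1-KD it was at 2.86 and 3.33 CPM, against 2.58 and 3.47 CPM in TAL1-control (0.04, edgeR adjusted p = 0.890). The UTX-KD call was lost without UTX-KD replicate 1 (-2.81, edgeR adjusted p = 0.132) or replicate 2 (-2.65, edgeR adjusted p = 0.141).

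VEGFA, the growth factor for blood vessels, parted from the other targets. TAL1-KD had VEGFA at 152 and 204 CPM, against 114 and 118 CPM in TAL1-control (log2 fold change 0.62 ± 0.13 SE, edgeR adjusted p = 0.00754). J4-2uM held VEGFA at 77.3 and 79.4 CPM, against 134 and 127 CPM in J4-control (-0.74 ± 0.04 SE, edgeR adjusted p = 3.30e-13). VEGFA rose in the TAL1-labelled comparison, where the TAL1-KD libraries differed most from each other, and fell with GSK-J4. UTX-KD had VEGFA at 75.3 and 77.3 CPM, against 70.0 and 72.9 CPM in UTX-control (0.10 ± 0.03 SE, edgeR adjusted p = 0.0253). That small call was lost without UTX-control replicate 1 (0.07, edgeR adjusted p = 0.306), without UTX-KD replicate 2 (0.08, edgeR adjusted p = 0.0650), with the GC and length trend removed (0.03, edgeR adjusted p = 0.390) and with the DESeq2 Wald test (0.09, adjusted p = 0.122). An opposite-strand gene overlaps VEGFA exons.

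NDRG1, a stress-responsive protein of the cytoplasm, had 44.2 and 43.6 CPM in UTX-KD, against 56.0 and 65.6 CPM in UTX-control (log2 fold change -0.47 ± 0.06 SE, edgeR adjusted p = 0.000224). J4-2uM had NDRG1 at 69.2 and 67.1 CPM, against 79.9 and 76.0 CPM in J4-control (-0.19 ± 0.04 SE, edgeR adjusted p = 0.000112). NDRG1 fell in both and was not called for TAL1-KD (0.04, edgeR adjusted p = 0.702). The UTX-KD call was lost without UTX-KD replicate 1 (-0.48, edgeR adjusted p = 0.259) or replicate 2 (-0.45, edgeR adjusted p = 0.278), and the GSK-J4 call with library totals only (-0.02, edgeR adjusted p = 0.594). TMEM45A, a transmembrane protein present at 0.931 to 2.67 CPM, was called lower for TAL1-KD (-0.90 ± 0.23 SE, edgeR adjusted p = 0.0138), and not without TAL1-control replicate 1 (-0.83, edgeR adjusted p = 0.0580). It was not called for UTX-KD (-0.25, edgeR adjusted p = 0.131) or GSK-J4 (-0.29 ± 0.13 SE, edgeR adjusted p = 0.0506). TMEM45A was called lower for UTX-KD without UTX-KD replicate 1 (-0.43, edgeR adjusted p = 0.0364), and for GSK-J4 without J4-control replicate 1 (-0.36, edgeR adjusted p = 0.0464), without J4-2uM replicate 2 (-0.43, edgeR adjusted p = 0.0117) and with DESeq2 size factors (-0.30, edgeR adjusted p = 0.0379).

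The 3 collagen and folding genes that were tested fell in both the UTX-labelled and the GSK-J4 comparison, with medians of -0.52 and -0.49. P4HA1, a catalytic subunit of collagen prolyl hydroxylase, fell by 0.52 ± 0.04 SE for UTX-KD (edgeR adjusted p = 2.07e-09) and by 0.41 ± 0.04 SE for GSK-J4 (edgeR adjusted p = 3.25e-09). ERO1A, the oxidase that recharges protein disulphide isomerase, fell by 0.38 ± 0.03 SE for UTX-KD (edgeR adjusted p = 1.36e-08) and by 0.49 ± 0.04 SE for GSK-J4 (edgeR adjusted p = 3.84e-10). For TAL1-KD neither was called (P4HA1 0.15, edgeR adjusted p = 0.400, and ERO1A -0.16, edgeR adjusted p = 0.113). P4HA1 was called higher for TAL1-KD with the GC and length trend removed (0.40, edgeR adjusted p = 0.0346), and ERO1A lower with library totals only (-0.30, edgeR adjusted p = 0.0268) and without TAL1-KD replicate 1 (-0.19, edgeR adjusted p = 0.00180). PLOD1, a collagen lysyl hydroxylase, had 35.3 and 34.2 CPM in J4-2uM against 64.1 and 61.0 CPM in J4-control (-0.85 ± 0.04 SE, edgeR adjusted p = 2.29e-13), and 37.1 and 35.4 CPM in UTX-KD against 50.4 and 54.8 CPM in UTX-control (-0.53 ± 0.04 SE, edgeR adjusted p = 3.48e-09). It rose in TAL1-KD, at 38.8 and 39.6 CPM against 29.7 and 31.7 CPM in TAL1-control (0.35 ± 0.08 SE, edgeR adjusted p = 0.0105), a call lost without TAL1-control replicate 1 (0.31, edgeR adjusted p = 0.208), without replicate 2 (0.40, edgeR adjusted p = 0.0870) and with library totals only (0.21, edgeR adjusted p = 0.102).

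Some calls in the TAL1-labelled comparison did not rest on any 1 library. HIF1A, CITED2, ANKZF1 and VEGFA stayed called higher, and AK4, ZNF395 and MIR210HG called lower, whichever of its 4 libraries was left out. In such fits a group left with 1 library is assumed to vary like the other group. The authors' deposited tables gave 9 higher and 7 lower hypoxia genes for TAL1-KD, 3 higher and 21 lower for UTX-KD, and 5 higher and 25 lower for GSK-J4. VEGFA in UTX-KD was the gene called here and not in the authors' deposited table.

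All 21 hypoxia genes that fell in UTX-KD also fell in J4-2uM. They were 87.5% of the 24 that fell in J4-2uM among hypoxia genes tested in all 3 comparisons. The 25 that fell in J4-2uM also include CA9, which was not tested in UTX-KD. Among the 16103 genes tested in all 3 comparisons, 2955 of the 4206 that fell in UTX-KD also fell in J4-2uM (70.3%), and these were 46.9% of the 6296 that fell in J4-2uM. The UTX-labelled and GSK-J4 comparisons share no library. Across the 31 genes tested in all 3 comparisons, the log2 fold changes of UTX-KD and GSK-J4 had a Pearson's r of 0.81 and a Spearman's rho of 0.86, beside 0.56 and 0.51 across all 16103 genes. For TAL1-KD and UTX-KD these were 0.57 and 0.43, beside 0.16 and 0.15 across all genes, and for TAL1-KD and GSK-J4 0.58 and 0.49, beside 0.30 and 0.26. These are descriptions across genes, which are not independent replicates and share the scaling of their libraries. Between the TAL1-labelled comparison and at least 1 other, 6 genes had calls of opposite direction, namely FAM162A, BHLHE40, CITED2, ANKZF1, VEGFA and PLOD1. They were 19.4% of the 31 genes, a share near the 20.3% of all 16103 genes with such calls.

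**Figure D3:**
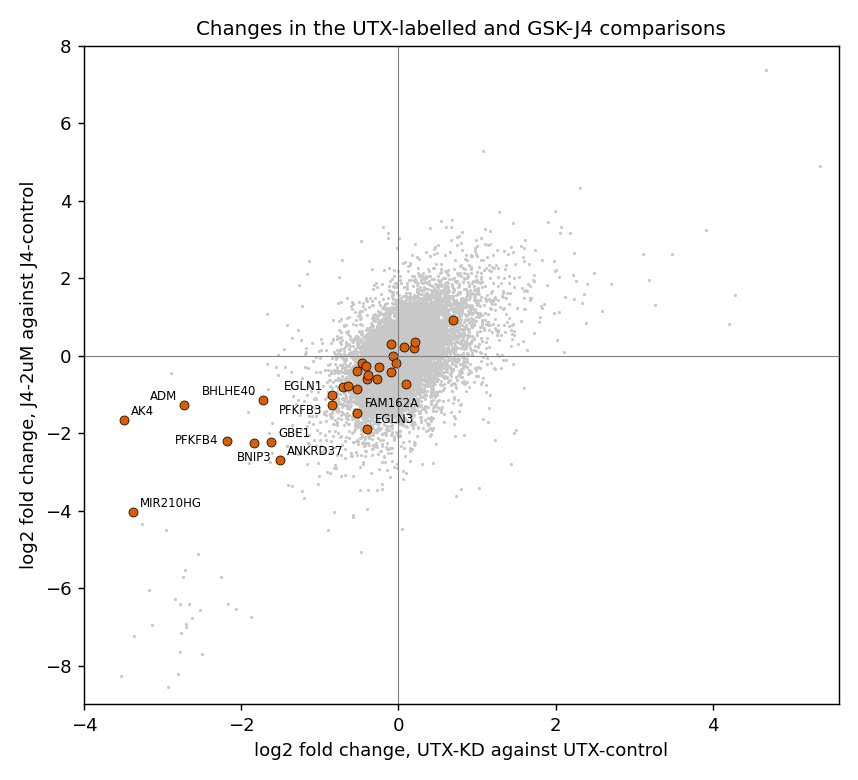
Log2 fold change for UTX-KD (x axis) against that for GSK-J4 (y axis) of 31 hypoxia genes in orange and of all 16103 genes tested in grey. Most hypoxia genes lie at the lower left, with MIR210HG at -3.38 and -4.04 and AK4 at -3.50 and -1.66.

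Whether changes differed between comparisons was tested as the interaction over 8 libraries. Such a difference cannot be told apart from the cell line and its medium. TAL1-KD minus UTX-KD differed for 25 of 32 hypoxia genes (78.1%, against 50.1% of all 17605 genes tested), with 22 of the differences above 0 and a median of 0.68, beside -0.03 over all genes. The largest among the genes described above was that of BHLHE40 (3.55 ± 0.27 SE, edgeR adjusted p = 3.40e-05), followed by ADM (2.81 ± 0.29 SE, edgeR adjusted p = 0.000118), PFKFB4 (1.92 ± 0.20 SE, edgeR adjusted p = 0.000108) and BNIP3 (1.68 ± 0.22 SE, edgeR adjusted p = 0.000303). EPAS1 (-0.44), ZNF395 (-0.36) and VHL (-0.24) were the 3 called differences below 0. Between TAL1-KD and GSK-J4, 24 of 32 differed (75.0%, against 54.0% of all 18188 genes), 23 of them above 0, with a median of 0.92 beside -0.03 over all genes. The 24 include CA9 (2.34 ± 0.79 SE, edgeR adjusted p = 0.0285), whose difference rests on 2 to 19 reads per TAL1-labelled library.

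UTX-KD minus GSK-J4 differed for 18 of 32 hypoxia genes (56.2%), a share near the 58.5% of all 18186 genes tested, with 11 above 0 and 7 below. EGLN3 (1.48 ± 0.09 SE, edgeR adjusted p = 1.52e-17), ANKRD37 (1.17 ± 0.17 SE, edgeR adjusted p = 1.19e-07), FAM162A (0.93 ± 0.06 SE, edgeR adjusted p = 2.41e-17) and VEGFA (0.82 ± 0.05 SE, edgeR adjusted p = 7.17e-18) were lower with GSK-J4 relative to control than with UTX-KD. AK4 (-1.85 ± 0.28 SE, edgeR adjusted p = 0.00398), ADM (-1.46 ± 0.35 SE, edgeR adjusted p = 0.0189) and BHLHE40 (-0.58 ± 0.12 SE, edgeR adjusted p = 0.00206) were lower with UTX-KD. No difference was called for PFKFB4 (0.01 ± 0.19 SE, edgeR adjusted p = 0.980), BNIP3 (0.41 ± 0.15 SE, edgeR adjusted p = 0.0616) or MIR210HG (0.66 ± 0.33 SE, edgeR adjusted p = 0.156). A miss of the threshold does not show that these 3 changed alike.

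The control cells themselves differed in the hypoxia genes. Levels scaled over all 12 libraries together, a choice made after the data were seen, were ranked by group mean. TAL1-control was lowest, UTX-control next and J4-control highest for 17 of 31 hypoxia genes (54.8%), against 2617 of 16103 genes (16.3%). Among these 17, libraries of different control groups overlapped for BNIP3L, CITED2, P4HA1 and ERO1A. J4-control was 30.2-fold above TAL1-control in CA9, 18.3-fold in AK4, 4.70-fold in EGLN3, 4.16-fold in ADM, 3.78-fold in MIR210HG, 3.55-fold in PFKFB4 and 3.27-fold in BNIP3. In CA9 and EGLN3 UTX-control was the lowest, and the CA9 ratio rests on 10 and 19 reads in TAL1-control. HIF1A, EPAS1, ARNT and VHL had the reverse order, with EPAS1 in J4-control at 0.311 of its TAL1-control level. These levels come from tables that were counted and deposited separately, and line, medium, the DMSO given to J4-control and preparation cannot be told apart between them.

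The log2 ratio of J4-control over TAL1-control levels ran against the UTX-KD log2 fold change, measured in other libraries, with a Pearson's r and a Spearman's rho of -0.87 each across the 31 hypoxia genes, beside -0.35 and -0.35 across 16102 genes. The relation does not hold gene by gene. ZNF395 stood at 0.828 of its TAL1-control level in J4-control and yet fell in UTX-KD (-0.40), while RORA stood 1.16-fold higher in J4-control and was not called in UTX-KD (0.07). The treated groups lay closer together for some genes. The highest over the lowest group mean was 1.31 among treated and 3.27 among control groups for BNIP3, 1.55 and 3.55 for PFKFB4, and 1.39 and 3.78 for MIR210HG. It was smaller among treated groups for 18 of 31 hypoxia genes (58.1%), against 31.0% of 16099 genes. AK4 was an exception, at 22.5 among treated and 18.3 among control groups.

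**Figure D4:**
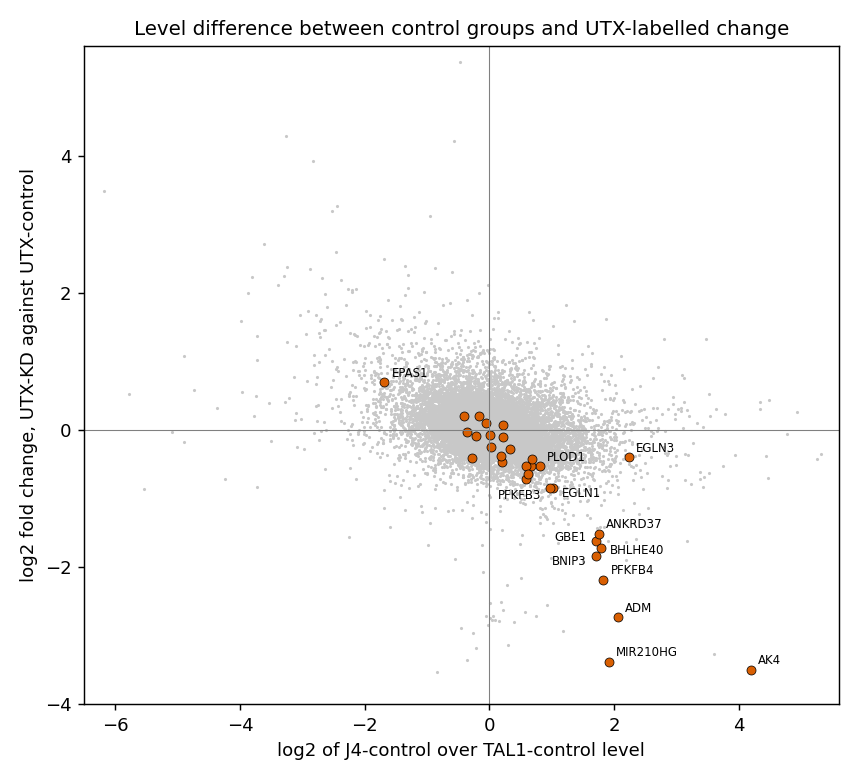
Log2 ratio of the J4-control over the TAL1-control level (x axis) against the log2 fold change of UTX-KD over UTX-control (y axis), for 31 hypoxia genes in orange and all 16102 genes in grey. The hypoxia genes run from EPAS1 at the upper left to AK4 and MIR210HG at the lower right, and the 2 axes share no library.

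Other genes of the pathway were read from lists drawn up by function, also with earlier results of these data known. Of 18 glycolytic HIF targets, 17 fell in UTX-KD and none rose (94.4% lower, against 25.5% of all genes), with a median log2 fold change of -0.78. With GSK-J4, 16 of them fell and 2 rose (88.9% lower, against 37.1% of all genes), with a median of -1.39. In TAL1-KD 3 fell and 4 rose (16.7% lower and 22.2% higher, against 27.7% and 26.2% of all genes), with a median of 0.10. The lactate dehydrogenase subunit LDHA fell by 1.42 on the log2 scale in UTX-KD and by 2.33 in J4-2uM, and the hexokinase HK2 fell by 1.28 in UTX-KD and fell by 2.55 in J4-2uM.

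HIF targets outside both sets went both ways. Of 26 tested in UTX-KD, 14 fell and 10 rose (53.8% lower and 38.5% higher, against 25.5% and 25.4% of all genes), with a median of -0.19. Of 28 tested with GSK-J4, 12 fell and 11 rose (42.9% lower and 39.3% higher, against 37.1% and 38.1% of all genes), shares near those of all genes, with a median of 0.04. Of 27 tested in TAL1-KD, 6 fell and 9 rose (22.2% lower and 33.3% higher, against 27.7% and 26.2%), with a median of 0.05. DDIT4, an inhibitor of mTOR signalling, fell by 0.78 in UTX-KD and by 1.73 in J4-2uM, while the lipoprotein receptor VLDLR rose by 0.93 in UTX-KD and by 0.74 in J4-2uM.

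Among regulators of HIF outside the listed genes 15 were tested. In UTX-KD 4 rose and 6 fell (26.7% higher and 40.0% lower, against 25.4% and 25.5% of all genes), with a median of 0.02. With GSK-J4, 5 rose and 8 fell (33.3% higher and 53.3% lower, against 38.1% and 37.1%), with a median of -0.09. In TAL1-KD 9 rose and 2 fell (60.0% higher and 13.3% lower, against 26.2% and 27.7%), with a median of 0.33. HSP90AB1, a chaperone that stabilises HIF1A, fell by 0.35 on the log2 scale in UTX-KD and by 1.51 in J4-2uM and rose by 0.92 in TAL1-KD. RBX1, the RING subunit of the VHL ubiquitin ligase, fell by 0.39 in UTX-KD and by 0.74 in J4-2uM and rose by 0.51 in TAL1-KD. ELOB and ELOC, the elongin subunits of the same ligase, rose by 0.88 and 0.61 in TAL1-KD. ELOB fell by 0.21 in J4-2uM and was not called in UTX-KD. ELOC fell by 0.13 in UTX-KD and was not called in J4-2uM.

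**Figure D5:**
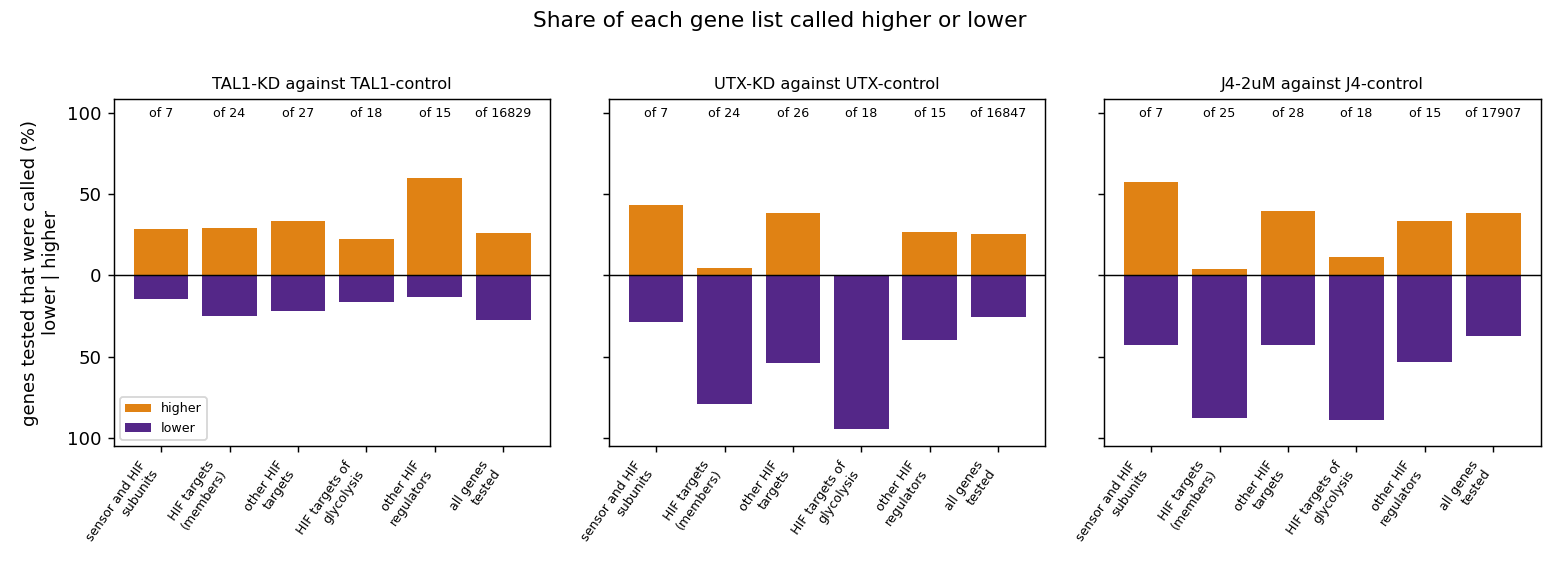
Percentage of genes called higher (upward bars) and lower (downward bars) by edgeR in each comparison, for the listed HIF subunits and sensors, the listed HIF targets, 3 other lists and all genes tested, with the number tested above each bar. Of the listed HIF targets, 88.0% were called lower with GSK-J4 against 37.1% of all genes, and 79.2% in UTX-KD against 25.5%. The lists were chosen with earlier results of these data known.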

How the data were processed

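Stranded mRNA libraries were sequenced, and the tools named by the submitters' processing notes are TopHat2 2.0.12, HTSeq 0.6.1p1 and DESeq2, with the hg19 build. The gene annotation, how strand was set in counting and how multi-mapping reads were treated are not given in the sources used here. The authors deposited, for each comparison, raw read counts per Ensembl gene in 4 libraries, with no normalization. The same deposited tables hold the authors' log2 fold changes with standard errors, p-values and adjusted p-values, the mean signal (counts over size factors) and a score, the Wald statistic, none of which entered the fits here.

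From the counts, genes were filtered with filterByExpr and scaled by TMM in edgeR 4.0.16 (R 4.3.3). Each comparison was fitted alone with the two-sided quasi-likelihood test, with Benjamini-Hochberg adjustment over all genes tested (16829 for the TAL1-labelled, 16847 for the UTX-labelled and 17907 for the GSK-J4 comparison) and a threshold of 0.05. Standard errors were taken as the absolute log2 fold change divided by the square root of F. The biological coefficient of variation was 8.4% for the TAL1-labelled comparison, 2.3% for the UTX-labelled one and 2.69% for GSK-J4. Differences between comparisons were fitted over 8 libraries. Levels set across tables were scaled by TMM over 12 libraries, which was added after the data were seen. Symbols, transcript lengths, GC content and overlaps came from GENCODE 29. Exons overlap a same-strand gene for 3 listed genes (HIF1A, EGLN2 and HILPDA). They overlap an opposite-strand gene for 10 (HIF1A, BNIP3L, FAM162A, BHLHE40, RORA, ANKZF1, VEGFA, P4HA1, P4HA2 and ERO1A). Pseudogenes are annotated for 5 (HIF1A, EGLN1, EGLN3, AK4 and BNIP3). The counts of all these genes are less certain. The procedure was tested on simulated data. Alternatives were another filter, scaling, threshold or tool (DESeq2 1.42.0), a replicate block, removal of GC and length trends, and each library left out. All listed genes were to be accounted for, and of each other list up to 3 called genes with the smallest adjusted p in its more frequent direction and 1 in the other could be named. The members and lists were chosen with earlier results of these data known. Protein sequences were not used here.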

Additional observations from a re-analysis of the deposited data

Results flagged for a closer look

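Several hypoxia genes changed differently in 2 comparisons, with calls of opposite direction and a called difference in the edgeR interaction test. On the log2 scale, TAL1-KD minus UTX-KD was 3.55 for BHLHE40, 1.17 for ANKZF1, 0.92 for PLOD1 and 0.91 for FAM162A. TAL1-KD minus GSK-J4 was 2.97 for BHLHE40, 1.85 for FAM162A, 1.38 for VEGFA, 1.23 for PLOD1, 1.10 for CITED2 and 1.01 for ANKZF1. UTX-KD minus GSK-J4 was 0.82 for VEGFA. In the TAL1-labelled comparison the calls of FAM162A, PLOD1 and BHLHE40 were lost when single libraries were left out. The log2 fold change of BHLHE40 remained at 2.01 without TAL1-KD replicate 1 and at 1.55 without replicate 2.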

How the results depend on the processing

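Over 1222 values of single genes under alternatives, 1112 kept their direction and side of the threshold, 46 lost a call, 41 gained one and 23 changed sign. In the TAL1-labelled comparison, 11 hypoxia genes were lower with library totals only and 4 at an adjusted p under 0.01, where all called genes numbered 5789 (2808 higher, 2981 lower). For UTX-KD, library totals gave 2724 lower genes and the DESeq2 Wald test 2801 higher genes. Fits without a library were filtered afresh, so the counts that follow can include CA9, which the reported shRNA comparisons did not test. Leaving out each library gave 5525 to 12040 called genes for TAL1-KD (2431 to 5907 higher, 3094 to 6133 lower) and 10 to 22 called hypoxia genes (5 to 11 higher, 4 to 11 lower). It gave 20 to 25 hypoxia genes for UTX-KD (3 to 5 higher, 17 to 22 lower), 30 to 32 for GSK-J4 (5 to 6 higher, 25 to 27 lower), and 18 to 25, 16 to 23 and 22 to 27 for TAL1-KD minus UTX-KD, UTX-KD minus GSK-J4 and TAL1-KD minus GSK-J4.

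Signs changed only for genes that were not called in the reported comparison. For TAL1-KD these were ADM -0.11 and NDRG1 -0.10 (library totals), and PFKFB3 0.00, INSIG2 0.13 and ERO1A 0.17 (GC and length trend removed, with and without the block), and, with each library left out, ADM (-0.16 to 0.26), NDRG1 (-0.03 to 0.12), P4HA1 (-0.06 to 0.38) and BNIP3 (-0.43 to 0.09). For UTX-KD they were EGLN2 0.00, VHL 0.06 and WSB1 0.02 (library totals), and RORA (0.00 to 0.14) with each library left out. For GSK-J4, WSB1 was 0.00 (no filter, and DESeq2 size factors), -0.01 (DESeq2 Wald test), -0.06 (without J4-control replicate 2) and -0.10 (without J4-2uM replicate 2, edgeR adjusted p = 0.0165). The cause was not tested.

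The labels do not say that same-numbered replicates shared a culture or day. Their deviations correlated at 0.07, 0.04 and -0.03 across genes in the TAL1-labelled, UTX-labelled and GSK-J4 comparisons. With 2 libraries per group these values cannot show whether the replicates were paired. The block added calls for EGLN3 (-0.34, edgeR adjusted p = 0.0485) and PFKFB4 (-0.29, edgeR adjusted p = 0.0364) in TAL1-KD and TMEM45A (-0.28, edgeR adjusted p = 0.0492) with GSK-J4. With the replicate block 18, 25 and 31 hypoxia genes were called (9 higher and 9 lower, 4 and 21, 5 and 26), and 9781, 8385 and 13461 of all genes, and 25, 23 and 25 differences. Cores in the 150 bases before the start were found for 20 genes in place of 22. CA9, at a few reads in the shRNA lines, was below the filter in both shRNA comparisons. It did enter the interaction fits, so its called TAL1-KD minus GSK-J4 difference rests on those few reads on the TAL1 side.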
